A study of Homo sapiens with 6 samples.

Results

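The genes described here are 10 transcription regulators of the circadian clock, measured by RNA sequencing in 143B cells. They are the period genes PER1, PER2 and PER3, the cryptochrome genes CRY1 and CRY2, the bHLH repressor genes BHLHE40 and BHLHE41, the REV-ERB receptor genes NR1D1 and NR1D2, and DBP. They were chosen by name as clock genes, and all 10 matched a row among the 60683 rows of the count table and were among the 15846 genes tested. 143B cells are an established human osteosarcoma line. Treated cells received TPBC-PEG for 24 h (3 libraries) and their controls received PBS, a salt buffer, for 24 h (3 libraries). The dose is not settled, since the titles of the samples read 3 µM and the treatment protocol reads 300 µM, and exposure of these cells to light is not stated. The series title names photodynamic therapy of osteosarcoma and HIPPO signalling. All 6 libraries come from 1 cell line without its tissue, at 1 harvest time, so a rhythm or a phase of the clock cannot be read from them.

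The clock is a feedback loop of transcription. The activators CLOCK, or its relative NPAS2, and BMAL1 bind DNA elements called E-boxes and switch on the PER and CRY genes, whose proteins then block the activators. BHLHE40 and BHLHE41 bind the same E-boxes as repressors, and BHLHE40 is also known as a gene that responds to hypoxia and other stresses. In a second loop the REV-ERB receptors repress BMAL1 and ROR receptors activate it, while DBP and its relatives act on D-boxes, which NFIL3 binds as a repressor. Cultured cell lines differ in how well their clocks run, and cells that have not been synchronised blur any rhythm in a pooled sample.

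The libraries held 15726323 to 20486584 counts, and replicates correlated at r = 0.992 to 0.993 of log2 CPM across genes, against 0.985 to 0.988 between the groups. The labels do not say that the 3 libraries of a group came from separate cultures, so the p-values rest on a spread between libraries that may be only technical. Of 7 osteosarcoma and mesenchymal markers, VIM, SPARC, RUNX2, ALPL, SPP1 and COL1A1 were present in every library, while COL1A2 had 6 counts over all 6 libraries. Some of them differed between the groups. RUNX2 ranged from 24.1 to 27.2 CPM with TPBC-PEG and from 15.9 to 19.1 CPM with PBS. SPP1 ranged from 29.9 to 31.9 CPM with TPBC-PEG and from 16.1 to 19.0 CPM with PBS, and COL1A1 from 17.6 to 22.7 CPM with TPBC-PEG and from 24.7 to 29.9 CPM with PBS. Genes of the mitochondrial chromosome took 5.55 to 5.77% of counts with TPBC-PEG and 6.32 to 7.25% with PBS. The part of these differences in the results on clock genes was not tested. Leukocyte, endothelial and red cell markers were at or near 0, with 3 counts of PTPRC, 7 of PECAM1, 10 of CDH5 and 0 of HBB over all libraries. The epithelial marker EPCAM, chosen like these as a gene that should be absent from the culture, was present instead. It stood at 16.2 to 17.5 CPM with TPBC-PEG and 15.1 to 17.7 CPM with PBS, and the reason was not tested. In RNA pooled from many cells, a change in the number of cells that express a gene and a change in RNA per cell cannot be told apart.

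The start regions of the 4 clock genes that rose, and of NR1D2, are shown as examples of the DNA elements through which the loop acts. Matches to such elements also stood in windows of the uncalled genes PER2, PER3, CRY1 and CRY2, which are not shown. The first NR1D2 start, also not shown, had no match. Each line is the 250 bases before a RefSeq transcription start (GRCh38.p14), read 5′ to 3′ on the gene's strand. Capitals mark matches to 4 kinds of element, searched on both strands: the E-box CACGTG, the E′-box CACGTT, the D-box TTATGNAA and the RORE core TAGGTCA. The regions are chr3:4979187-4979436 on the plus strand for BHLHE40, chr12:26125038-26125287 on the minus strand for BHLHE41, chr17:8152405-8152654 on the minus strand for PER1, chr17:40100590-40100839 on the minus strand for NR1D1 and chr3:23945871-23946120 on the plus strand for the second of the 2 NR1D2 starts.
BHLHE40: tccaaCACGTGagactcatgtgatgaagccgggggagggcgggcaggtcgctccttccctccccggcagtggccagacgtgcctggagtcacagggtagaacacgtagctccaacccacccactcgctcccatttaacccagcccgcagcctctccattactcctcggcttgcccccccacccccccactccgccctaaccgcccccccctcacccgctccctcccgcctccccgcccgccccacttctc
BHLHE41: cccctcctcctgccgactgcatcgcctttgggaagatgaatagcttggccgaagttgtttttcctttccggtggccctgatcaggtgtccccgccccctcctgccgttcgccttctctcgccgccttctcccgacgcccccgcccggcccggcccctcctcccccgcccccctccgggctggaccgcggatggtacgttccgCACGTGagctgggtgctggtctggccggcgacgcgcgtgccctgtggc
PER1: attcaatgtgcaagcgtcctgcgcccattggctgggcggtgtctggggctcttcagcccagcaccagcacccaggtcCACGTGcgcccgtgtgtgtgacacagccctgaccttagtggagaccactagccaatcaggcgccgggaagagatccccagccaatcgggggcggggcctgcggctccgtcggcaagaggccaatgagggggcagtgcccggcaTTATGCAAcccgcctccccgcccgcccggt
NR1D1: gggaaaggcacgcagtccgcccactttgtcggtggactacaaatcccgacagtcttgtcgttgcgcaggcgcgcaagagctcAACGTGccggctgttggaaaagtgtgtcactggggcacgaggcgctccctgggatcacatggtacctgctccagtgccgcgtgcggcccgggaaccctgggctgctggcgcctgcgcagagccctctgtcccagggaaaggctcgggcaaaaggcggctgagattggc
NR1D2: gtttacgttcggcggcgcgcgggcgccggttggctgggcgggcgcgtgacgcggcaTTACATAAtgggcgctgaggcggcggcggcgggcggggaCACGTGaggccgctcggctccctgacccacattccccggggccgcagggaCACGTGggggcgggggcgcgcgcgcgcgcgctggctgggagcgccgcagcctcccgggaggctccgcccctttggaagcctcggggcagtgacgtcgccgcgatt

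An E-box stood in the windows of BHLHE40, BHLHE41, PER1 and NR1D2. Among all 35116 windows of the same length in the RefSeq table, 6.34% held this motif, and among the 13 windows of the 10 clock genes 4 did. The BHLHE40 match lay 245 to 240 bases before the start and the BHLHE41 match 48 to 43 bases before it. NR1D2 held 2 E-boxes, at 155 to 150 and 105 to 100 bases before its second start. NR1D1 had an E′-box instead, as did PER2, CRY1 and CRY2, in 4 of the 13 windows against 4.55% of all windows. The D-box matched in PER1, PER3 and NR1D2 (3.03% of all windows), and the RORE core in CRY2 alone among the clock genes (1.61% of all windows). DBP had no match to these 4 motifs in its window, nor did any clock gene to the CREB element TGACGTCA or to TGATGCAA, a part of the composite element that ATF4 binds. None of the matches overlapped another. By the gene coordinates given below, the windows shown for BHLHE40, PER1 and NR1D2 lie wholly inside the annotated gene. Those of BHLHE41 and NR1D1 lie partly inside it, and the BHLHE41 E-box is in that part. A match is a description of letters in the window and not evidence of binding.

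Part of the repressor side of the clock had more mRNA with TPBC-PEG than with PBS. BHLHE41 was 1.66-fold and BHLHE40 1.61-fold as high in TPBC-PEG as in PBS libraries, NR1D1 1.35-fold and PER1 1.23-fold. The other 6 clock genes, among them both cryptochromes, did not pass the test, and none was called lower. Across all 15846 genes, 2574 were called higher and 2682 lower, or 33.2% in either direction, 16.2% higher and 16.9% lower, at an adjusted p under 0.05. Scaling by library size alone turned this split to 3213 higher and 1971 lower. The CPM of the 2 groups did not overlap for 5 of the 10 clock genes, against 43.4% of all genes tested. For CRY1, among these, the gap was smaller than the digits printed below show. The median log2 fold change of the 10 was 0.10, beside 0.011 for all genes. The 10 genes were picked with results of these data known, so their share of calls is no independent evidence about the clock. All calls come from edgeR's quasi-likelihood test on raw counts with Benjamini-Hochberg adjustment over all genes, and levels are given as CPM, a gene's share of its library's TMM-scaled counts.

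**Figure D1:**
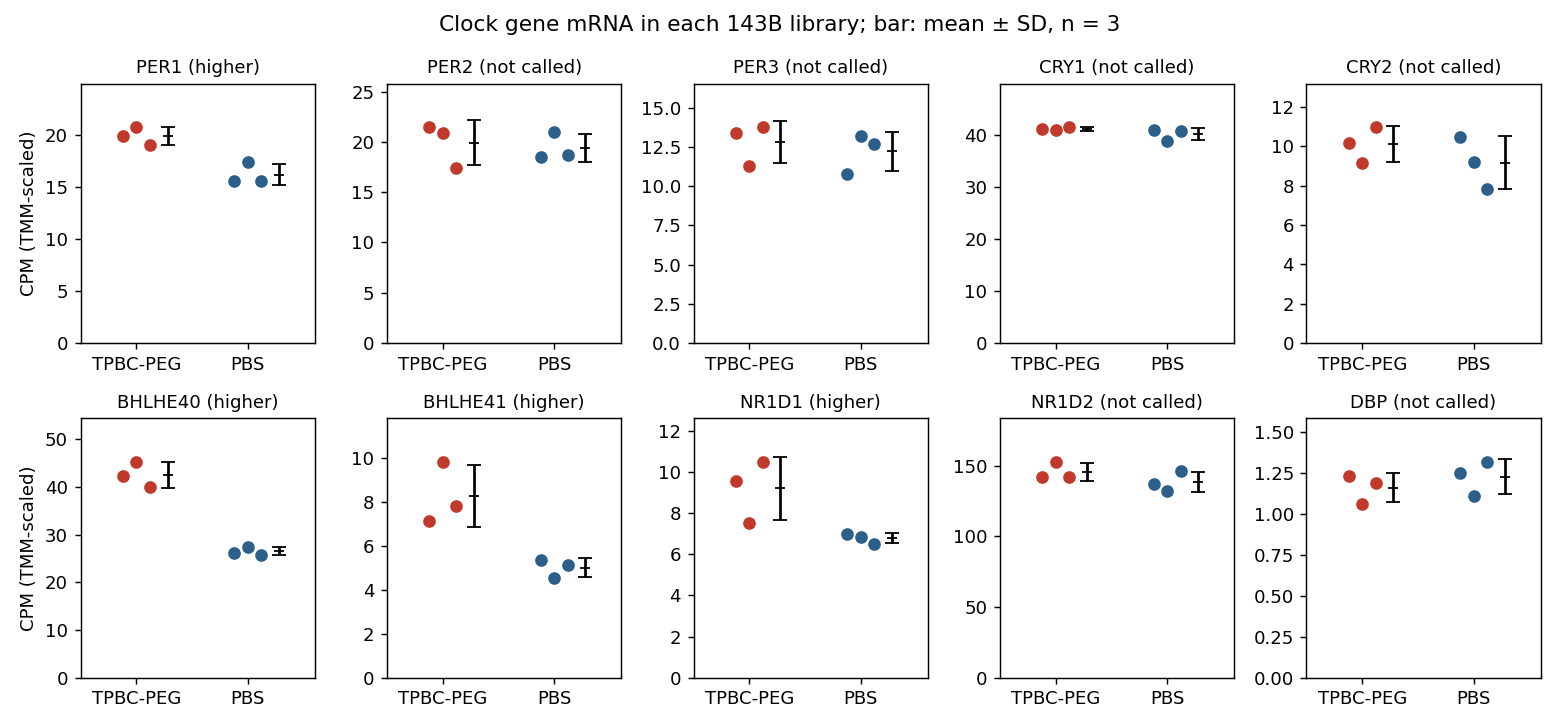
The 10 panels give the TMM-scaled CPM of each clock gene in the 3 TPBC-PEG and 3 PBS libraries (points), with the mean ± SD beside them. Points of the 2 groups are apart for BHLHE40, BHLHE41, NR1D1 and PER1, touch for CRY1, and are mixed for the other 5 genes.

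BHLHE40 (ENSG00000134107; chromosome 3, 4979116 to 4985323 in GRCh38) encodes the repressor also called DEC1. It stood at 42.2, 45.3 and 40.0 CPM in the TPBC-PEG libraries, against 26.2, 27.4 and 25.8 CPM in the PBS libraries. Every TPBC-PEG library lay above every PBS library, and the gap between the groups was wider than the spread within either. The log2 fold change was 0.69 ± 0.068 (SE, n = 3 each; edgeR quasi-likelihood, Benjamini-Hochberg adjusted p = 1.48e-11), with a 95% interval of 1.46 to 1.77-fold. It ranked 689th from the top among the 15846 log2 fold changes. Of the called genes, 11.9% moved further than BHLHE40 in one direction or the other. Its antisense transcript BHLHE40-AS1, which touches 0.1% of its exon length, averaged 0.734 ± 0.243 CPM with TPBC-PEG and 0.656 ± 0.254 CPM with PBS and was not called.

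BHLHE41 (chromosome 12, 26120026 to 26125127) encodes DEC2, the closest relative of DEC1. It was at 7.14, 9.84 and 7.84 CPM with TPBC-PEG, against 5.37, 4.54 and 5.11 CPM with PBS. The groups were apart, with TPBC-PEG replicate 2 highest. Its log2 fold change was 0.73 ± 0.15 (SE; edgeR quasi-likelihood, Benjamini-Hochberg adjusted p = 8.36e-05), with a 95% interval of 1.35 to 2.03-fold, which holds the 1.61-fold of BHLHE40. SSPN on the opposite strand shares 4.1% of the BHLHE41 exon length. It averaged 5.43 ± 0.465 CPM with TPBC-PEG and 4.73 ± 0.18 CPM with PBS and was not called. Whether counting used the strand is not given in the sources used here, so reads in such overlaps cannot be assigned.

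Among the REV-ERB genes, whose receptors repress BMAL1, NR1D1 rose and NR1D2 did not pass the test. NR1D1 (chromosome 17, 40092787 to 40100725) had 9.56, 7.52 and 10.5 CPM with TPBC-PEG, against 6.99, 6.82 and 6.5 CPM with PBS. Its TPBC-PEG libraries were uneven, and the lowest of them, replicate 2, lay just above the highest PBS library. The log2 fold change was 0.43 ± 0.13 (SE; edgeR quasi-likelihood, Benjamini-Hochberg adjusted p = 0.00921). Without TPBC-PEG replicate 3 it was 0.33 and the call was lost (Benjamini-Hochberg adjusted p = 0.0879 in edgeR's quasi-likelihood test). Over the 16 other settings tried, the adjusted p of NR1D1 ran from 0.00191 to 0.0879, mostly by edgeR. THRA, the thyroid hormone receptor gene on the opposite strand, overlaps 9.49% of the NR1D1 exon length and averaged 18.6 ± 1.59 CPM with TPBC-PEG and 21.0 ± 1.29 CPM with PBS, which was not called.

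NR1D2 (chromosome 3, 23945260 to 23980618) was the most abundant of the 10 genes. It had 142, 153 and 142 CPM with TPBC-PEG, against 137, 132 and 146 CPM with PBS. The groups overlapped, and the log2 difference of 0.075 ± 0.043 (SE) did not reach the threshold by edgeR's quasi-likelihood test (Benjamini-Hochberg adjusted p = 0.189), with a 95% interval of 0.992 to 1.12-fold. It passed under 1 setting, library size alone, at 0.12 (edgeR quasi-likelihood, Benjamini-Hochberg adjusted p = 0.0267). The 2 E-boxes shown above stand in the start region of this gene, so the clock genes with an E-box included both called and uncalled ones.

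The period proteins form the repressor complex with the cryptochromes, and of their 3 genes only PER1 passed. PER1 (chromosome 17, 8140472 to 8156506) was at 19.9, 20.8 and 19.1 CPM with TPBC-PEG, against 15.6, 17.4 and 15.6 CPM with PBS. All TPBC-PEG libraries were above all PBS libraries. Its log2 fold change was 0.30 ± 0.087 (SE; edgeR quasi-likelihood, Benjamini-Hochberg adjusted p = 0.00533), near the median absolute value of 0.29 over the called genes. PER2 (chromosome 2, 238244038 to 238290102) had 21.5, 20.9 and 17.4 CPM with TPBC-PEG, against 18.5, 21.0 and 18.7 CPM with PBS, and these ranges overlapped. PER3 (chromosome 1, 7784320 to 7845177) had 13.4, 11.3 and 13.8 CPM with TPBC-PEG, against 10.8, 13.2 and 12.7 CPM with PBS. Neither gene was called, and the 95% intervals allowed 0.913 to 1.17-fold for PER2 and 0.9 to 1.22-fold for PER3. PER3 shares 16.7% of its exon length with other annotated genes, among them UTS2 on the opposite strand, which had a level of 0 CPM in both groups.

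The cryptochromes, the main repressors of CLOCK and BMAL1, had no gene that passed the test. CRY1 (chromosome 12, 106991364 to 107093829) was at 41.0, 40.8 and 41.5 CPM with TPBC-PEG, against 40.8, 38.8 and 40.7 CPM with PBS. The groups were apart only before rounding, and meet at 40.8 CPM as printed. The log2 difference was 0.035 ± 0.062 (SE; Benjamini-Hochberg adjusted p = 0.72 in edgeR's quasi-likelihood test), with a 95% interval of 0.94 to 1.12-fold. CRY2 (chromosome 11, 45847118 to 45883248) was at 10.2, 9.16 and 11 CPM with TPBC-PEG, against 10.5, 9.2 and 7.82 CPM with PBS, and its interval ran from 0.924 to 1.29-fold. DBP (chromosome 19, 48630030 to 48637438), an activator that the clock drives strongly in tissues such as liver, was scarce. It had 24, 22 and 19 counts in the TPBC-PEG libraries and 24, 20 and 21 counts in the PBS libraries. At this depth its interval was wide, 0.608 to 1.47-fold, so neither a moderate rise nor a moderate fall of DBP was detectable. SPHK2 on the opposite strand overlaps 10.1% of the DBP exon length, and it stood at 11.1 ± 0.5 CPM with TPBC-PEG and 12.9 ± 0.958 CPM with PBS.

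Divided by exon length, the levels of the 10 genes kept much the same order in both groups. NR1D2 led, at 25 ± 1.09 CPM per kb with TPBC-PEG and 23.8 ± 1.17 with PBS. BHLHE40 was second with TPBC-PEG, at 11.1 ± 0.696 CPM per kb, and the third with PBS, at 6.9 ± 0.213. CRY1 was the third with TPBC-PEG, at 8.12 ± 0.0714 CPM per kb, and second with PBS, at 7.93 ± 0.218. These places did not overlap with their neighbours in either group. With TPBC-PEG, NR1D1, PER2 and PER1 followed at 3.32, 2.9 and 2.85 CPM per kb and overlapped from one to the next. BHLHE41 came after them at 2.1 ± 0.354 CPM per kb, whereas with PBS it stood ninth, at 1.27 ± 0.107, overlapping CRY2. CRY2 and PER3 overlapped in both groups, and DBP was last, at 0.178 ± 0.0138 CPM per kb with TPBC-PEG and 0.188 ± 0.0168 with PBS. Exon length is the union of all annotated exons, which understates the level of genes with long minor transcripts.

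Within a library, the ratio of counts of related genes does not depend on scaling. The PER1 to PER2 ratio was 0.928, 0.993 and 1.1 with TPBC-PEG, against 0.842, 0.828 and 0.834 with PBS. All TPBC-PEG values were higher, a log2 difference of 0.27, and the exact permutation test, two-sided as for all ratios, gave p = 0.1, which is its lowest possible value with 3 libraries a group (0.5 after Benjamini-Hochberg adjustment over the 5 ratios). The BHLHE40 to BHLHE41 ratio was 5.91, 4.61 and 5.1 with TPBC-PEG, against 4.88, 6.02 and 5.05 with PBS. These values mixed, and the log2 difference was -0.03 (exact permutation p = 0.8). For NR1D1 to NR1D2 the log2 difference was 0.36 (exact permutation p = 0.3), with TPBC-PEG replicate 2 among the PBS values, and for CRY1 to CRY2 it was -0.11 (exact permutation p = 0.6). PER3 to PER2 differed by 0.033 (exact permutation p = 0.9).

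**Figure D2:**
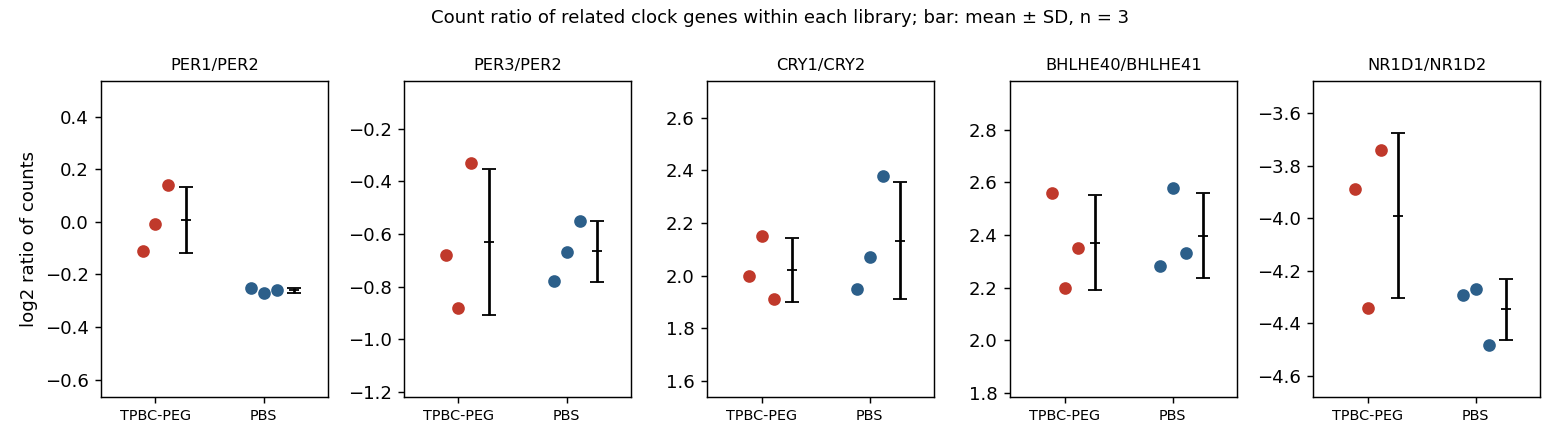
Each panel gives the log2 ratio of raw counts of 2 related clock genes in the 3 TPBC-PEG and 3 PBS libraries (points), with the mean ± SD beside them, on axes of equal span. The groups are apart for PER1/PER2, where the log2 difference is 0.27, and overlap for the other 4 ratios.

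The activators on the other side of the loop were mostly higher too. Of 6 activator genes tested, 4 rose and 0 fell, with a median log2 fold change of 0.29 beside 0.011 for all genes. Among all genes tested, 16.2% were called higher and 16.9% lower. This list and those below were chosen with earlier results of these data known, so their counts are no independent evidence about the clock. BMAL1, the partner of CLOCK, was at 14.6, 16.9 and 17.8 CPM with TPBC-PEG, against 13.1, 12.6 and 11.7 CPM with PBS, a log2 fold change of 0.39 ± 0.099 (SE; edgeR quasi-likelihood, Benjamini-Hochberg adjusted p = 0.00139). CLOCK rose by 0.23 ± 0.052 on the log2 scale. NPAS2 averaged 95.4 ± 0.0981 CPM with TPBC-PEG and 75.1 ± 4.41 CPM with PBS. RORA, a receptor that activates BMAL1, rose by 0.40 ± 0.092 on the log2 scale. The groups did not overlap for these 4 genes. BMAL2, the relative of BMAL1 and the most abundant activator gene by CPM, had a log2 difference of -0.1 ± 0.042 and was not called (Benjamini-Hochberg adjusted p = 0.0599 in edgeR's quasi-likelihood test). In 4 of the 16 other settings, one of them without PBS replicate 2, 1 activator gene was called lower. RORB was not called.

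Among 6 other repressors and D-box factors, 1 rose and 1 fell, beside 16.2% higher and 16.9% lower among all genes. NFIL3, the D-box repressor, had 23.4, 23.3 and 21.0 CPM with TPBC-PEG, against 14.6, 14.9 and 14.4 CPM with PBS, a log2 fold change of 0.63 ± 0.086 (SE; edgeR quasi-likelihood, Benjamini-Hochberg adjusted p = 6.83e-08). Its levels were tight and far apart between the groups. The D-box activator genes TEF and HLF, relatives of DBP, had log2 differences of 0.049 ± 0.12 and 0.17 ± 0.2 and were not called. TIPIN, which encodes a partner of TIMELESS at replication forks, fell by 0.23 ± 0.051 on the log2 scale. Over 21.0% of its exon length TIPIN overlaps a ribosomal protein pseudogene. Without PBS replicate 1, 2 genes of this list were called lower.

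The genes for kinases and ubiquitin ligases of clock proteins mostly did not pass. Of 8 such genes 1 rose and 1 fell, with a median of -0.0038, beside 16.2% higher and 16.9% lower among all genes. The casein kinase genes CSNK1D and CSNK1E, whose products phosphorylate PER proteins, were at log2 differences of -0.078 ± 0.046 and 0.041 ± 0.052 and were not called. FBXW11, a ligase gene for PER proteins, rose by 0.16 ± 0.043. USP2, a deubiquitinase gene, had 1.75, 1.54 and 1.76 CPM with TPBC-PEG, against 3.34, 3.21 and 3.34 CPM with PBS. That fall, of -0.97 ± 0.23 on the log2 scale, was the largest in the clock lists (edgeR quasi-likelihood, Benjamini-Hochberg adjusted p = 0.000548). An opposite-strand gene overlaps 17.5% of the USP2 exon length. Of 7 cofactor genes, KMT2A, a histone methyltransferase gene, rose by 0.14 ± 0.036, while HDAC3, the deacetylase of the REV-ERB corepressor, fell by 0.27 ± 0.057 and NONO, an RNA-binding partner of PER proteins, fell by 0.16 ± 0.036.

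Of 7 genes known as outputs of the clock, 4 rose and 1 fell, with a median of 0.48 beside 0.011 for all genes. Among all genes, 16.2% were called higher and 16.9% lower. KLF9, a transcription factor gene, was at 29.4, 29.7 and 31.2 CPM with TPBC-PEG, against 15.7, 17.0 and 18.8 CPM with PBS, a log2 fold change of 0.81 ± 0.08 (SE; edgeR quasi-likelihood, Benjamini-Hochberg adjusted p = 1.17e-11). PPARA, a nuclear receptor of fatty acid metabolism, rose by 0.63 ± 0.1 and NAMPT, the enzyme of NAD salvage, by 0.48 ± 0.051. PPARGC1A, a coactivator gene of mitochondrial biogenesis, rose by 0.84 ± 0.29 and was scarce, at 1.99 ± 0.366 CPM with TPBC-PEG and 1.12 ± 0.165 CPM with PBS. The PPARGC1A call was lost without TPBC-PEG replicate 2 and without PBS replicate 1, at Benjamini-Hochberg adjusted p of 0.149 and 0.0845 in edgeR's quasi-likelihood test, and with DESeq2 (adjusted p = 0.0633). KLF10 fell by 0.17 ± 0.051. These genes also answer to signals outside the clock, and the part of the clock in their levels was not tested.

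Of 6 bHLH-Orange genes, the family of BHLHE40 and BHLHE41, 1 was called, beside 33.2% of all genes. HES7, best known as an oscillator of the segmentation clock of embryos, was at 11.3, 10.0 and 10.0 CPM with TPBC-PEG, against 5.22, 5.71 and 4.79 CPM with PBS. Its log2 fold change was 0.99 ± 0.13 (SE; edgeR quasi-likelihood, Benjamini-Hochberg adjusted p = 2.78e-08). No TPBC-PEG library came near a PBS library. HES1, the Notch target, was at -0.19 ± 0.083 and not called. A second gene of this list was called higher without TPBC-PEG replicate 3, without PBS replicate 2 and with the GC offset. Without TPBC-PEG replicates 1 or 2 or PBS replicates 2 or 3, 1 was called lower. The GC offset and the filter of 1 CPM in 3 libraries also each called 1 lower. Among 7 genes through which CREB and the glucocorticoid receptor act on PER1, or which report on that receptor, 2 rose and 1 fell. The shares among all genes were 16.2% higher and 16.9% lower. NR3C1, the glucocorticoid receptor gene, rose by 0.24 ± 0.048. The targets of this receptor that are in the list, TSC22D3 and FKBP5, went apart. TSC22D3 was at 9.12 ± 0.302 CPM with TPBC-PEG and 5.87 ± 0.808 CPM with PBS. FKBP5 was at 93.8 ± 5.5 CPM with TPBC-PEG and 108 ± 2.4 CPM with PBS. TSC22D3 rose (log2 fold change 0.63 ± 0.13) and FKBP5 fell (-0.20 ± 0.047). CREB1 and the coactivator genes CRTC1, CRTC2 and CRTC3 were not called.

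Over the 7 lists together, 14 of 47 tested genes rose and 6 fell, with a median of 0.074, beside 16.2% higher and 16.9% lower among all genes. The CPM of the groups did not overlap for 26 of the 47 genes, against 43.4% of all genes tested.

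**Figure D3:**
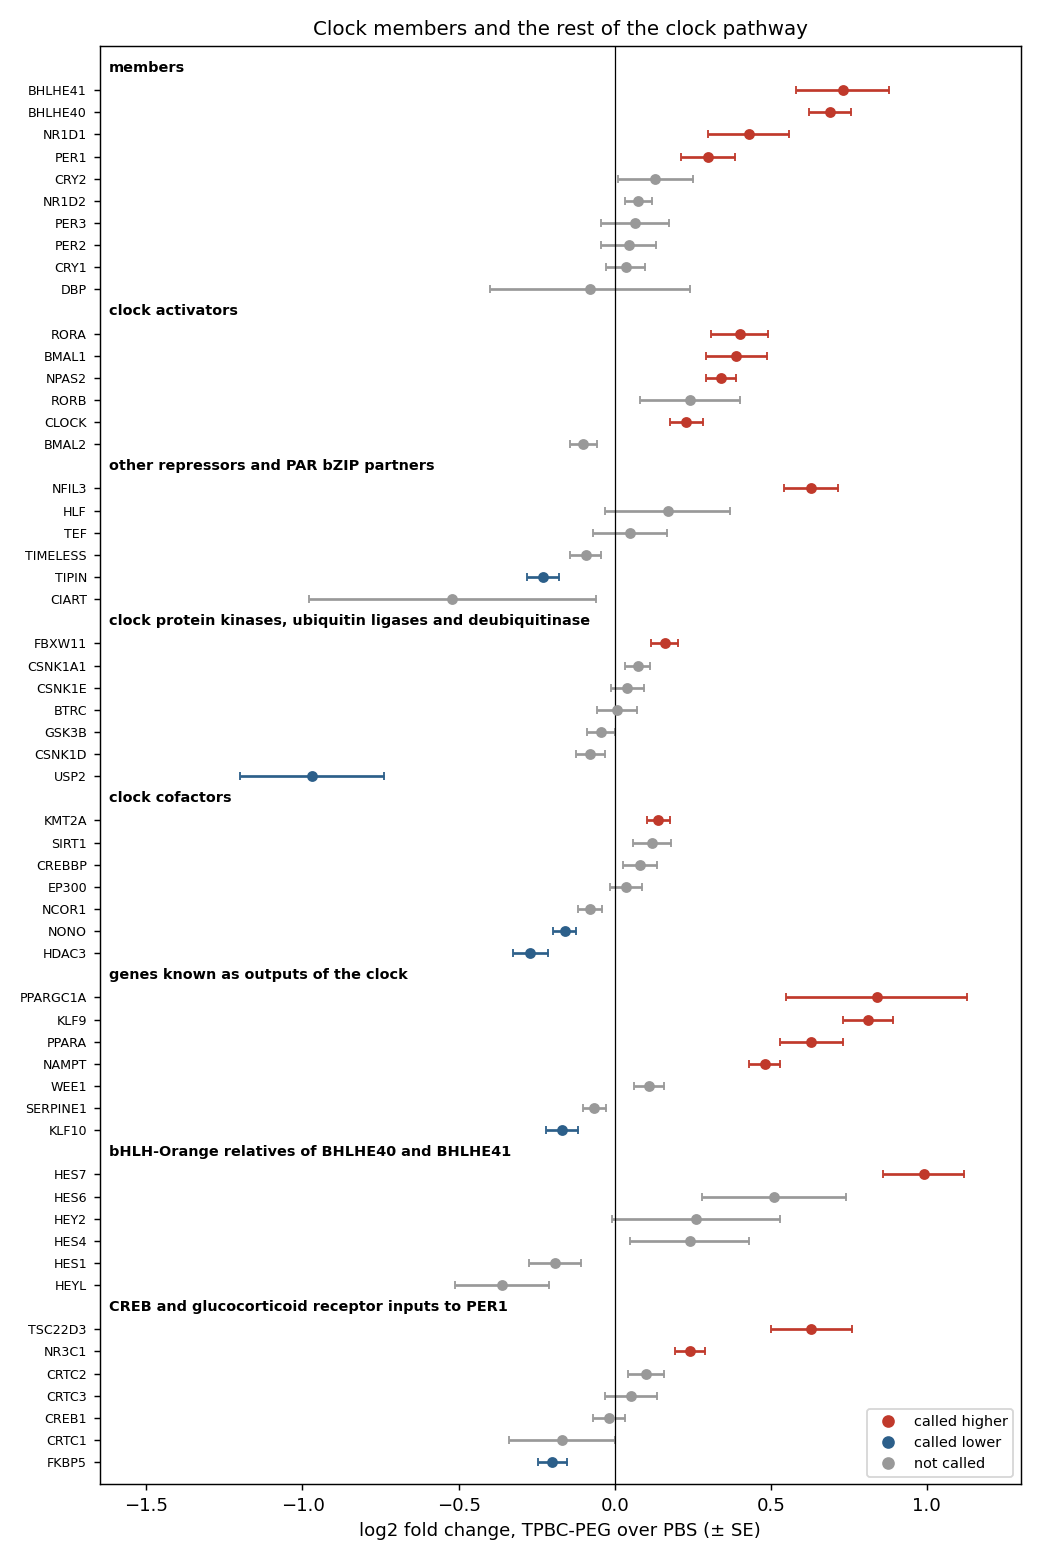
Points give the log2 fold change of TPBC-PEG over PBS with its SE for the 10 clock genes and 46 of the 47 tested genes of the 7 other clock lists, coloured by call. BHLHE41 and BHLHE40 lead the 10 genes at 0.73 and 0.69, HES7 is highest overall at 0.99 and USP2 lowest at -0.97.

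Among 11160 other genes averaging 5 CPM or more, those whose log2 CPM followed BHLHE40 most closely over the 6 libraries were MFSD8 (Pearson's r = 0.9995), GABARAPL1 (0.9991) and TCEA1 (0.999). The 6 points fall into the 2 treatment groups, so r mainly reflects the shared shift between them. GABARAPL1 was at 28, 30.7 and 25.6 CPM with TPBC-PEG, against 12.7, 13.3 and 11.7 CPM with PBS. MFSD8 and TCEA1 had log2 fold changes of 0.40 and 0.52. GABARAPL1 encodes a protein of autophagosome membranes, MFSD8 a lysosomal membrane protein and TCEA1 a transcription elongation factor.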

How the data were processed

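RNA of 6 libraries was measured, and the authors deposited raw counts per gene as a single table (60683 Ensembl identifiers). HISAT2 is named as a tool and GRCh38 as the build, per the submitters' processing notes. Which program counted the reads, with which annotation and strand setting, is not given in the sources used here. Groups and replicate numbers came from the sample titles. Symbols (42013 rows) came from a gene name table, and coordinates, exon lengths, GC content and overlaps from GENCODE 29 on GRCh38, which covered 58496 rows. Promoter sequences came from RefSeq (GRCh38.p14), with windows for all 10 clock genes.

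Genes were kept by filterByExpr (minimum count 10, minimum total 15), which left 15846. Libraries were scaled by TMM and tested with edgeR 4.0.16 (quasi-likelihood, robust) in R 4.3.3, on a model of group alone, with Benjamini-Hochberg adjustment over all genes; the threshold was 0.05. SEs were taken from the F statistic; the prior count for log2 CPM was 2. Count ratios used a pseudocount of 0.5 and an exact permutation test. DESeq2 1.42.0, limma 3.58.1 (voom), other scalings and filters, non-robust estimation, a GC offset, a replicate block and leaving out each library were alternatives. In simulated data for TPBC-PEG against PBS with 200 of 15846 genes changed, recovery was 46% for changes of 1.25-fold, 86% for 1.5-fold and 96% for 2-fold. False calls made up 7 of 169. The changed genes were drawn only from those above a floor of mean counts, so the scarcest genes are not covered. Far fewer genes were changed than were called in the data, so these rates need not hold for the calls here. Genes named were the 10 clock genes, every called gene of the 7 lists, and the 3 genes most like BHLHE40; other list genes were named as examples after their values were seen, and a few genes that are counted in the lists are not reported here. The 10 genes, the lists and the tests were chosen with earlier results of these data known. Library totals were 15726323 to 20486584 counts; intervals are of the fitted fold change.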

Additional observations from a re-analysis of the deposited data

How the results depend on the processing

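BHLHE40, BHLHE41 and PER1 kept their direction and their call under all 16 other settings, at log2 fold changes of 0.64 to 0.73, 0.58 to 0.83 and 0.27 to 0.37. NR1D1 ran from 0.33 to 0.56 when single libraries were left out, and its call was lost at 0.33. NR1D2 was called with library size alone, at 0.12. With single libraries left out, the uncalled differences of PER2 and PER3 ran from -0.011 to 0.13 and from -0.03 to 0.15, changing sign, and CRY1 was at -0.027 with the GC offset. The causes were not tested. Among the count ratios, leaving out single libraries gave -0.12 to 0.16 for PER3/PER2, -0.21 to 0.0077 for CRY1/CRY2 and -0.12 to 0.063 for BHLHE40/BHLHE41, so the sign of these was not settled. No setting called a clock gene lower, DESeq2 and limma-voom included, and 0 were lower at an unadjusted p under 0.05. The split of all calls was 3213 higher to 1971 lower with library size alone and 2574 to 2682 with TMM. Library size alone also called 1 more gene higher in each of 4 lists, the kinases and ligases (2), cofactors (2), outputs (5) and CREB and glucocorticoid inputs (3), where counts of genes called higher are in parentheses. Of the 20 called genes in the clock lists, 1 (PPARGC1A) changed its call. Replicate numbers showed no clear pairing of the samples. Same-numbered deviations from the group means correlated at -0.015 to 0.065, and not every library correlated best with its own number. Deviations from means of 3 libraries cannot exclude a shared culture or batch, and the labels do not settle it. With the replicate number as a block 2531 genes were higher and 2644 lower, and 4 clock genes were higher and 0 lower. Depth limits DBP, with 19 to 24 counts in a library.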

Other observations

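The genes next to the clock genes on their chromosomes were also measured. Of the 20 nearest tested protein-coding genes without overlap, 1 on each side of each clock gene, 3 were called higher and 2 lower. Among all genes tested, 16.2% were called higher and 16.9% lower. HES7, described above, lies 16.4 kb from PER1, and HES6, another member of its family, lies 3.38 kb from PER2. HES6 averaged 3.3 ± 0.794 CPM with TPBC-PEG and 2.33 ± 0.677 CPM with PBS and was not called. On either side of BHLHE41, RASSF8 at 40.1 kb and ITPR2 at 211 kb were both called higher. SSPN, which overlaps BHLHE41 and is therefore not among the 20, was not called. RASSF8 averaged 228 ± 13.4 CPM with TPBC-PEG and 172 ± 5.45 CPM with PBS, a log2 fold change of 0.41 ± 0.041 (SE). ITPR2 averaged 63.2 ± 1.35 CPM with TPBC-PEG and 57.0 ± 0.395 CPM with PBS. The neighbours called lower were PARK7, beside PER3, and ABTB3, beside CRY1.

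Across the 11331 tested genes with a RefSeq start window, an E-box was not accompanied by more rises. Of the 1263 genes with an E-box in a window 16.5% were called higher and 20.3% lower, beside 17.3% and 19.0% of the 10068 without one. With an E′-box 18.4% were called higher and 16.5% lower, beside 17.1% and 19.3% without one, and with a D-box 18.8% were called higher and 15.1% lower, beside 17.2% and 19.2% without one. The RORE core, in windows of 170 genes, went with 21.2% called higher and 19.4% lower, beside 17.1% and 19.1% of genes without it. The 390 genes with the CREB element TGACGTCA had 18.2% called higher and 24.1% lower, beside 17.2% and 19.0% without it. The 73 genes with TGATGCAA, which no clock gene window held, had 32.9% called higher and 8.22% lower, beside 17.1% and 19.2% of genes without it. These shares are descriptions with no test.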
